A study of Mus musculus with 6 samples.

Results

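The regions described here are stretches of open chromatin that were called as peaks in both libraries of Alkbh5 knockout (KO) mouse embryonic stem cells and in no library of wild-type (WT) cells or of cells with the Alkbh5 del-cIDR allele. Overlapping peaks (1 bp or more) of the 6 lists were merged, and 3034 of the 253594 merged regions on chromosomes 1 to 19 had this call pattern. They made up 1.2% of the merged regions and 2.5% of the 121308 regions called in both KO libraries. Of the 3034, 1134 lay on chromosomes 6, 8 and 11 (2.37% of the merged regions there), whose open regions were taller in the KO libraries over the whole chromosome or a long part of it. These are given apart from the 1900 on the other 16 autosomes (0.924%). The members were chosen by their calls, so the counts, heights and q values below describe them and test nothing.

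The assay was ATAC-seq: a transposase inserts sequencing adapters into accessible DNA, so that fragments pile up at open sites. The cells were of the E14TG2a line and grew in 15% serum with 1000 U/ml LIF and with inhibitors of MEK (1 µM PD0325901) and of GSK3 (3 µM CHIR99021). All 3 genotypes, WT, Alkbh5 KO and Alkbh5 del-cIDR, had 2 libraries and received 10 µl of spike-in nuclei before transposition. The labels do not say whether a genotype is 1 clone or whether replicates came from separate cultures, so the spread between replicates may be technical and the genotype cannot be told apart from the line that carries it.

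The enzyme ALKBH5 erases m6A, the methyl mark on adenosines of RNA that the METTL3 and METTL14 complex writes. Some of the marked RNA stays bound to chromatin, where m6A readers act on transcript stability and on nearby chromatin. In embryonic stem cells m6A is known for its part in leaving the pluripotent state. The series title names intrinsically disordered regions, which are protein stretches without a fixed fold, and the del-cIDR label is used here as given.

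The peak lists held 150680 to 193905 mouse peaks, a number that does not give the sequencing depth. The deposited fold and p of a peak give back the height of its summit in tags and the local background in tags around it. The lowest called summit held 5 or 6 tags in every library. The WT lists were the longest, at 193905 and 184884 peaks, and the KO lists held 164639 and 150680. A site absent from a list is therefore not shown to be closed, only to be under the limit. The genes available for naming were placed on GRCm38.p6 and the peaks on GRCm39, so genes, promoters and sequences at these positions, the targeted gene and the stem cell marker genes were not analysed here.

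Chromosome 6 held the largest number of KO-only regions, 480, followed by chromosome 8 with 392 and chromosome 11 with 262. The other 16 autosomes held 61 to 179 each. As a share of the regions called in both KO libraries, KO-only regions were 5.65% on chromosome 6, 4.89% on chromosome 8 and 2.99% on chromosome 11. On the other 16 autosomes the share was 1.71% on chromosome 19 to 2.24% on chromosome 12, with 1.98% over all of them. Together the 3 chromosomes stood at 4.49%, and no other autosome reached the share of chromosome 11.

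Regions called only in the other genotypes were distributed differently. Counted the same way, 6751 WT-only regions (2.66% of all merged regions) and 1108 del-cIDR-only regions (0.437%) were found on chromosomes 1 to 19, which is 4.6% and 0.901% of the regions called in both libraries of the genotype. WT-only regions were 2.81% of the merged regions on the 16 autosomes and 2.01% on chromosomes 6, 8 and 11, and del-cIDR-only regions 0.477% and 0.265%. Among regions with calls in both WT libraries, the WT-only ones were 3.58% on these 3 chromosomes and 4.82% on the other 16 autosomes. Del-cIDR-only regions were 0.578% and 0.971% of the regions called in both del-cIDR libraries. Both classes thus had the lower share where the KO-only class had the higher one, and all 3 counts depend on the same 6 lists.

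**Figure D1:**
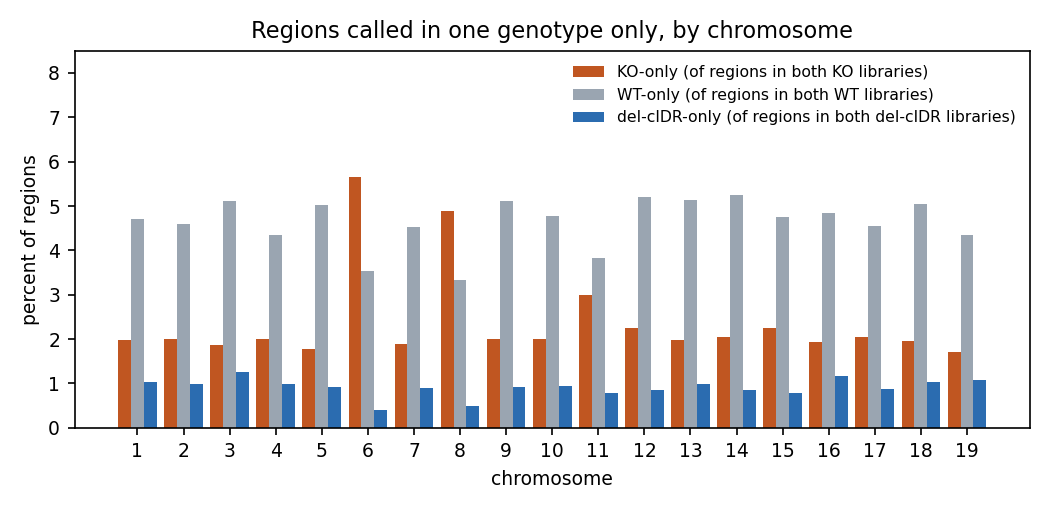
Bars show, for each autosome, the regions called in both libraries of 1 genotype and in no other library, as a percent of all regions called in both libraries of that genotype. KO-only bars reach 5.65% on chromosome 6, 4.89% on chromosome 8 and 2.99% on chromosome 11, against at most 2.24% elsewhere.

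Regions called in all 6 libraries, named shared regions from here on, give the level of each chromosome from other regions than the members. Heights were set relative to the median height of the 78451 regions of the 16 autosomes called in all 6 libraries, separately in each library, on the log2 scale. On chromosome 6 the 5905 shared regions had median log2 heights of 0.28 and 0.31 in the KO libraries, against -0.09 and -0.08 in WT and -0.25 and -0.20 in del-cIDR. On chromosome 8 the 5667 shared regions stood at 0.42 and 0.40 in KO, against 0.09 and 0.08 in WT and -0.09 and -0.05 in del-cIDR. Both KO libraries were above all other libraries on these chromosomes, and both del-cIDR libraries were below both WT libraries. On the 16 autosomes the KO minus WT difference of single chromosomes was -0.06 to 0.06 log2. Scaling by the lowest background of each list in place of the median height moves every KO minus WT difference by -0.24 log2 and every del-cIDR minus WT difference by -0.12. The values of chromosomes 6 and 8 are then 0.14 and 0.08 and that of the whole of chromosome 11 turns from 0.18 to -0.06, while single chromosomes of the other 16 lie between -0.31 and -0.18. All differences of height here are thus relative to the median shared region. DNA copy number was not analysed here, and a change in copy number of a chromosome or stretch cannot be told apart from a change in its accessibility by peak heights.

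Chromosome 11 was divided. From 11 to 56 Mb, a stretch known from earlier results of these data, KO-only regions numbered 150 of the 2688 regions called in both KO libraries, or 5.58%. On the rest of the chromosome they numbered 112 of 6066, or 1.85%, which lies within the range of the 16 autosomes. Shared regions of the stretch had median log2 heights of 0.38 and 0.40 in KO, against -0.05 and -0.04 in WT and -0.05 and 0 in del-cIDR, a KO minus WT difference of 0.43. Outside it, the KO minus WT difference was 0.04 log2. The gene Alkbh5 is on chromosome 11, and its place relative to this stretch was not analysed here.

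Most KO-only regions were low. On the 16 autosomes the summit height was 11 tags in KO replicate 1 at the median, with a range of 6 to 127, and 9 tags in KO replicate 2, with a range of 5 to 120. All regions called in both KO libraries there had medians of 27 and 21 tags. The members of chromosomes 6, 8 and 11 had the same medians, 11 and 9 tags, with highest values of 68 and 69. Regions called only in another genotype were as low: on the 16 autosomes, WT-only regions had medians of 10 and 11 tags and del-cIDR-only regions 10 in both libraries. The deposited fold over background, the authors' value for each peak, had medians of 4.42 and 4.37 for members of the 16 autosomes, against 8.84 and 7.94 for all regions called in both KO libraries. The WT-only regions had medians of 4.45 and 4.71, and the del-cIDR-only regions 4.20 in both libraries.

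The share of KO-only regions was lower in taller groups when the regions called in both KO libraries were put into 10 groups of equal size by scaled height. In the lowest group on the 16 autosomes, with medians of 9 and 8 tags, 1069 of 9604 regions were KO-only, or 11.1%. In the second it was 4.14%, in the fifth 0.823%, and in the highest group 1 of 9603 regions, the chromosome 17 region described first below. The groups of chromosomes 6, 8 and 11 had 26.0% in the lowest, 9.77% in the second and 1.42% in the fifth, and no KO-only region among the 2527 regions of each of the 2 highest. The same fall with height was seen for WT-only regions of the 16 autosomes, from 22.3% to 0.00833%, and for del-cIDR-only regions, from 6% to 0.0099%.

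**Figure D2:**
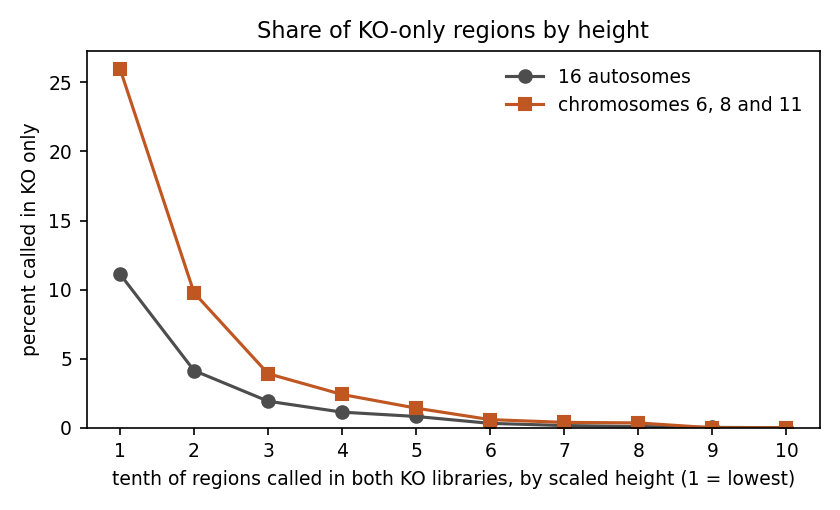
Points show the percent of regions called in both KO libraries that were called in no other library (y axis) in 10 equal groups of these regions by scaled height (x axis, lowest first). The share falls from 11.1% to 0.0104% on the 16 autosomes, and from 26.0% to 0 on chromosomes 6, 8 and 11.

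The distance of the members from the calling limit was calculated by giving each region, in each of the 4 libraries that lacked it, the scaled height and background it had in KO. At that level the median member of the 16 autosomes would have reached 10.6 and 11.9 tags in WT and 10.6 and 10.2 in the del-cIDR libraries, against a median limit of 6 tags. In 275 of 1900 members (14.5%) the height was at least 2 times the limit in all 4 libraries. The same was true of 200 of the 1134 on chromosomes 6, 8 and 11 (17.6%). After the KO height was lowered by the difference between the whole chromosome's level in KO and in the other library, 46 (4.06%) were left at 2 times the limit or more, and 220 (19.4%) came under the limit in at least 1 library. With chromosome 11 split at the stretch described above, a choice made after seeing the data, 35 (3.09%) and 237 (20.9%) were counted. The whole-chromosome step left 264 of 1900 (13.9%) on the 16 autosomes. For the 1134, a rise of these regions alone and the level of the chromosome cannot be told apart from calls. All these counts start from KO heights of regions chosen by their KO calls, so the distance from the limit may be overstated. They were not calculated for WT-only or del-cIDR-only regions.

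Members, which had to be called in both KO libraries, had like heights in them, and their summits lay farther apart than those of all regions called in both. Scaled heights lay within a factor of 2 of each other in 1874 of 1900 members on the 16 autosomes (98.6%) and in 1109 of 1134 on chromosomes 6, 8 and 11 (97.8%), against 98.8% and 98.9% of all regions called in both KO libraries. The summits of the libraries were a median of 45 bp apart on the 16 autosomes and 44 bp on the other 3 chromosomes. For all regions called in both KO libraries these distances were 26 and 24 bp. Summits lay within 50 bp of each other in 53.6% of the members of the 16 autosomes (95% Wilson interval 51.3% to 55.8%), against 68.6% of all regions called in both KO libraries there. The share was 53.7% for the del-cIDR-only regions (50.6% to 56.8%) and 65.5% for the WT-only regions (64.2% to 66.7%). The intervals cover counting error over regions only.

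**Figure D3:**
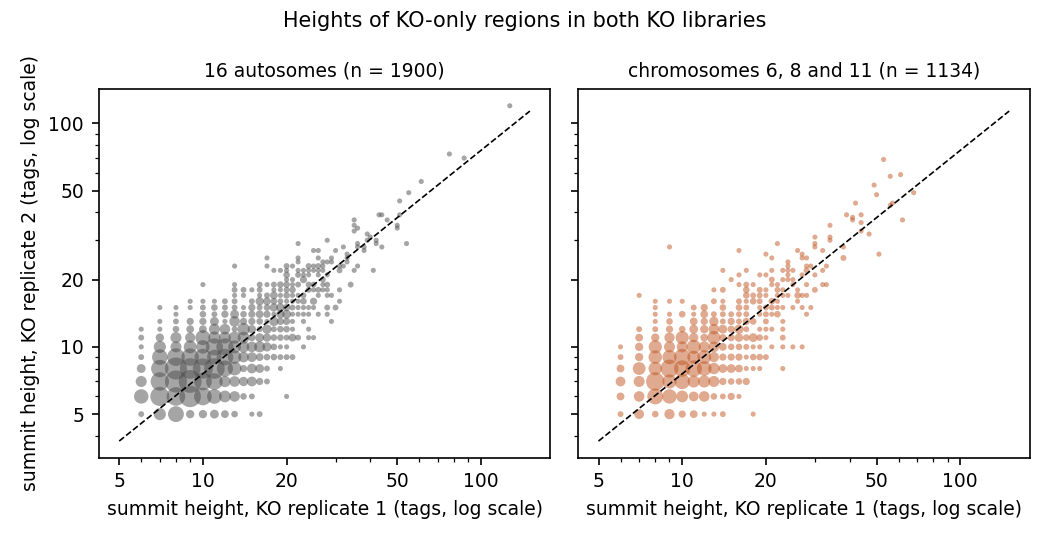
Each point is a pair of summit heights in tags in KO replicate 1 (x axis, log scale) and KO replicate 2 (y axis, log scale), with the area growing with the number of KO-only regions at that pair. The dashed line marks equal scaled height, and the bulk of both sets sits at 6 to 20 tags.

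Most KO-only regions lay on a low background, and their merged width was above that of WT-only and del-cIDR-only regions at the median. A merged width spans the peaks of both libraries. The merged width was 261 bp at the median on the 16 autosomes, with a range of 130 to 964, and 276 bp on chromosomes 6, 8 and 11. WT-only and del-cIDR-only regions of the 16 autosomes had medians of 209 and 242 bp. The narrowest peak of a list was 113 or 114 bp in WT, 121 or 130 in KO and 123 or 125 in del-cIDR. The local background was at the lowest value of the list, 1.26 and 1.01 tags in the KO libraries, at 1073 of 1900 members (56.5%), against 29.1% of all regions called in both KO libraries, and 54.9% of the WT-only and 46.2% of the del-cIDR-only regions in their own lists. The nearest region called in all 6 libraries was 6505 bp away at the median on the 16 autosomes and 9062.5 bp on chromosomes 6, 8 and 11. For WT-only regions these distances were 6444 and 4884 bp, and for del-cIDR-only regions 5629 and 4687 bp. Within 1 kb of a shared region were 214 of 1900 members (11.3%) and 97 of 1134 (8.55%).

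The tallest KO-only region of all lay on chromosome 17 from 29319193 to 29319589 (GRCm39) and held 127 and 120 tags in the KO libraries. Its deposited fold was 21.0 and 24.0, its summits were 5 bp apart, and its peak was 354 bp wide in replicate 1 and 145 bp in replicate 2. The KO level was at least 10.2 times the calling limit of each library that lacked it. The nearest shared region, 4512 bp away, had summits of 50 and 46 tags in KO, against 43 and 46 in WT and 47 and 51 in del-cIDR. Tags depend on the depth of a library, and on the scaled log2 heights this shared region stood at 0.60 and 0.88 in KO, 0.43 and 0.35 in WT, and 0.55 and 0.72 in del-cIDR. Both KO values were above both WT values there, and KO replicate 1 lay between the del-cIDR values.

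Next in height was chromosome 2 from 156489151 to 156489367, with 87 and 70 tags and folds of 15.8 and 15.6. A second chromosome 17 region, from 24198691 to 24198874, reached 61 and 55 tags over a background of 1.99 and 1.67 tags. With 1 tag added to height and to background, the folds of this region were 20.7 and 21.0. Its nearest shared region, 10163 bp away, stood at scaled log2 heights of 0.63 and 0.21 in KO, against 0.36 and 0.12 in WT and 0.36 and 0.37 in del-cIDR, so the groups overlapped. These 3 had folds above 10 in both KO libraries, which 4 of the 1900 members had. The other tall members were mixed, and some lay on a high background near a taller shared region.

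One such member, on chromosome 3 from 89989249 to 89989495, had 77 and 73 tags over a background of 26.2 and 20.5, a fold of 2.87 and 3.44. The shared region 1308 bp away had 283 and 211 tags in KO and 203 and 258 in WT, or scaled log2 heights of 3.10 and 3.08 against 2.67 and 2.84. On chromosome 12 from 109917152 to 109917550, the heights were 55 and 49 tags over a background of 15.9 and 12.9. The remaining members among the 10 tallest of the 16 autosomes lay on chromosomes 5, 16, 15, 2 and 9, with 44 to 51 tags in replicate 1 and 35 to 45 in replicate 2. Of the 83 members of the 16 autosomes with at least 20 tags in both KO libraries, 48 lay within 2 kb of a shared region, 48 had a background of at least 5 tags in both libraries, and 4 had a fold of at least 10 in both.

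The tallest members of chromosomes 6, 8 and 11 were of the kind with a high background. On chromosome 11 from 22804734 to 22805091 the heights were 53 and 69 tags, and the nearest shared region, 2835 bp away, had 92 and 74 tags in KO, against 64 in both WT libraries and 35 and 29 in del-cIDR. On chromosome 8 from 12553444 to 12553609 the heights were 61 and 59 tags, 456 bp from a shared region where KO had 195 and 157 tags and WT had 149 and 160. Scaled log2 heights of that shared region were 2.56 and 2.65 in KO, against 2.22 and 2.15 in WT. On chromosome 6 from 82678441 to 82678645 the member's heights were 68 and 49 tags over a background of 23.2 and 18.2. The level of this last region was 1.64 times the calling limit, and 1.13 times after the chromosome's own level was taken off. On chromosome 11 from 100162466 to 100162710, outside the raised stretch, they were 56 and 58 tags with folds of 5.93 and 7.46.

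The widest members of the 16 autosomes were low and broad. On chromosome 17 from 32621870 to 32622833 the region spanned 964 bp with 13 and 9 tags, and its summits were 238 bp apart. Others of 804 to 910 bp lay on chromosomes 17, 12, 1 and 15, with 9 to 12 tags in replicate 1 and 6 to 11 in replicate 2. All 5 had the lowest background of the list in both KO libraries.

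At the edge of the rule, the weakest members were on chromosome 8 from 88429991 to 88430183 and from 23854558 to 23854859, with −log10 q of 1.31 in the weaker KO library of each, and on chromosome 5 from 53737151 to 53737364, with 1.34. Just outside, chromosome 9 from 60721701 to 60721921 showed 21 and 19 tags in KO and also 8 tags in del-cIDR replicate 2, at a −log10 q of 1.30. Chromosome 8 from 91080713 to 91081051 showed 16 and 15 tags in KO and 5 in WT replicate 1, at 1.32. Chromosome 13 from 35970628 to 35970932 showed 9 and 8 tags in KO and 6 in WT replicate 1, at 1.33. Regions called in both KO libraries and exactly 1 other numbered 2976 on the 16 autosomes. The other library was WT replicate 1 in 1165, WT replicate 2 in 888, del-cIDR replicate 1 in 475 and del-cIDR replicate 2 in 448. On chromosomes 6, 8 and 11 the numbers were 538, 428, 177 and 193 in the same order of libraries. A further 7566 regions of the 16 autosomes were called in KO replicate 1 alone and 6520 in KO replicate 2 alone. For chromosomes 6, 8 and 11 these numbers were 3007 and 2507.

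The height of shared regions close to the members was tested, since the rule did not use those regions. On the 16 autosomes, 1873 shared regions lay 1 to 10 kb from a KO-only region. Their median log2 height was 0.04 and 0.06 in the KO libraries, against 0.04 and 0 in WT and -0.05 and 0 in del-cIDR. KO and WT overlapped, with means of 0.05 ± 0.01 and 0.02 ± 0.03 (SD, n = 2), and the difference was 0.03 log2 (exact permutation test, two-sided p = 0.667). Del-cIDR, at -0.02 ± 0.03 (SD, n = 2), differed from WT by -0.05 log2 (exact permutation test, two-sided p = 0.667). Tests of 2 against 2 libraries cannot give a p below 0.333. The sign of the KO difference was not stable: it was -0.01 with lists of equal length and -0.05 for neighbours within 5 kb. Scaled by background it was -0.21, against -0.24 over all shared regions of the 16 autosomes. Without KO replicate 1 or 2 it was -0.01 or -0.05, and without del-cIDR replicate 1 or 2 it was -0.0007 or -0.02. The del-cIDR difference was close to 0 or above it under several settings.

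Near the members of chromosomes 6, 8 and 11 the shared regions had higher medians in both KO libraries than in both WT libraries. The 949 neighbours had median log2 heights of 0.31 and 0.26 in KO, against 0 and -0.04 in WT and -0.14 and -0.05 in del-cIDR. The difference was 0.31 log2. It describes these chromosomes and is not a test, since they were set apart with their taller shared regions in KO already known. The whole set of 18538 shared regions of these chromosomes gave 0.27 log2, so the neighbours stood close to the level of their chromosomes. Scaled by background, the values were 0.07 and 0.03.

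**Figure D4:**
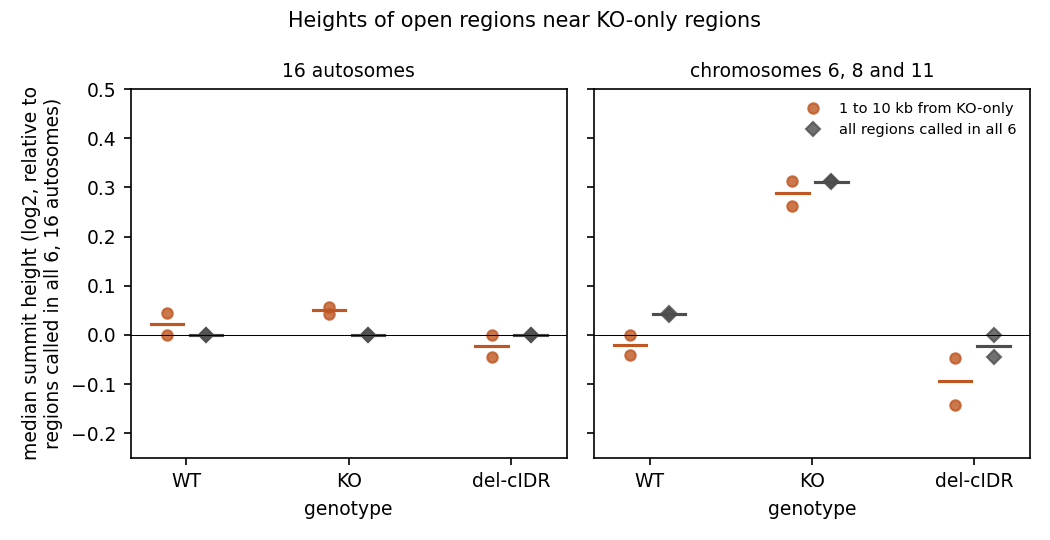
Median log2 summit height per library of shared regions 1 to 10 kb from a KO-only region (circles) and of all shared regions (diamonds), with lines at the genotype mean of 2 libraries. On chromosomes 6, 8 and 11 both kinds sit near 0.3 in KO, while on the 16 autosomes all values lie between -0.05 and 0.06.

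Windows of 1 Mb with at least 20 shared regions were ordered by the median KO minus WT log2 difference of single shared regions in them and put into 4 groups of equal size. On the 16 autosomes, KO-only regions were 1.62% of the regions called in both KO libraries in the lowest group, at a median difference of -0.05, and 1.76%, 1.87% and 1.93% in the following groups, the last at 0.19. WT-only regions went from 5.13% to 4.30% of those called in both libraries of WT over the same groups. For chromosomes 6, 8 and 11 the KO-only share was 1.97% in the lowest group, at a median difference of 0.10, and 4.43%, 4.66% and 5.04% in the others, at 0.35, 0.44 and 0.55. Among these windows the share was higher where shared regions were taller in KO. The lowest group held 124 KO-only regions of 6299. Chromosome 11 outside its raised stretch had a like share, 112 of 6066 (1.85%). The KO minus WT difference of library medians there was 0.04. The groups were not split by chromosome, so the step from 1.97% to 4.43% may repeat the division of chromosome 11 given above. From the second group to the last, the share went from 4.43% to 5.04%. The median difference of single regions is 0.09 over all shared regions of the 16 autosomes, so it is not centred on 0. Windows with fewer than 20 shared regions are outside the groups and had the higher shares, 336 of 9393 regions (3.58%) on the 16 autosomes against 1564 of 86644 (1.81%) in the grouped windows. On the other 3 chromosomes these were 208 of 1949 (10.7%) against 926 of 23322 (3.97%). WT-only regions of the 16 autosomes also had the higher share in such windows, 5.87% against 4.71%, as had del-cIDR-only regions, 1.11% against 0.958%. On chromosomes 6, 8 and 11 these 2 classes did not, with 3.26% against 3.61% and 0.568% against 0.578%.

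**Figure D5:**
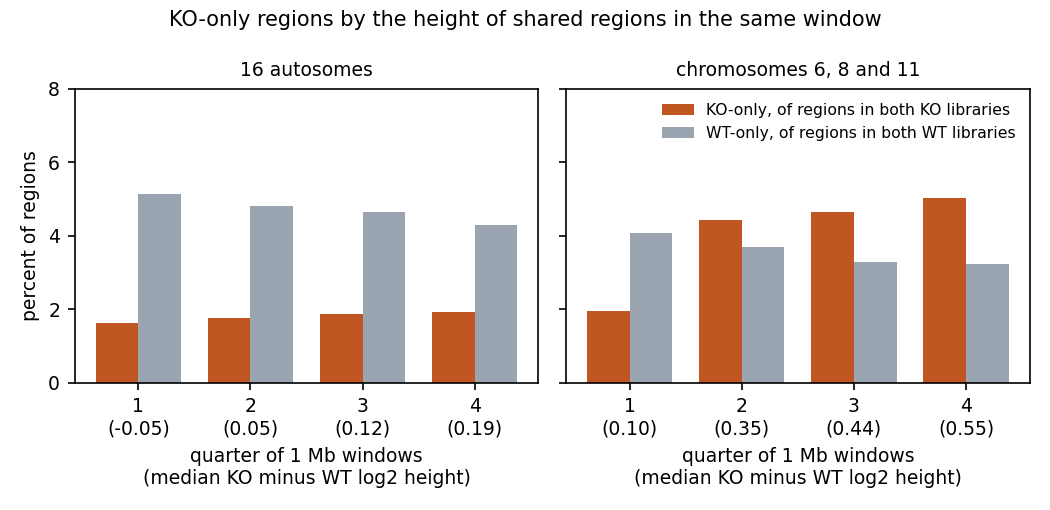
Bars show KO-only and WT-only regions as a percent of the regions called in both libraries of that genotype, in 4 equal groups of 1 Mb windows ordered by the KO minus WT log2 height of shared regions (median in brackets). KO-only shares go from 1.62% to 1.93% on the 16 autosomes and from 1.97% to 5.04% on chromosomes 6, 8 and 11.

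Among 1 Mb windows of the 16 autosomes, the one from 133 to 134 Mb on chromosome 4 held the most KO-only regions, 10 of the 147 regions called in both KO libraries (6.80%). All 10 lay between 133.1 and 133.9 Mb, a stretch chosen after its values were seen, as the run of 100 kb bins whose shared regions were lower in del-cIDR than in WT by over 0.3 log2. Their heights were 8 to 36 tags in KO replicate 1 and 7 to 23 in replicate 2, and the tallest lay from 133398553 to 133398720 with 36 and 23 tags. The 82 shared regions of the stretch had median log2 heights of 0.97 and 0.91 in KO and 0.69 and 0.72 in WT, but -0.05 and -0.15 in del-cIDR. The difference of the library medians from WT was -0.80 in del-cIDR, against -0.04 in the 1 Mb before the stretch and -0.09 in the 1 Mb after it. In KO it was 0.23, near the 0.22 of the 1 Mb before, and 0.08 after. As a median of single regions, however, KO minus WT was 0.38 in the stretch, against 0.17 before it and 0.13 after it. These flanks held 2 and 1 KO-only regions. Of the 1379 windows compared, this one had the lowest median del-cIDR minus WT difference of single regions, -0.63, and the next lowest was -0.21. The missing del-cIDR calls of these 10 regions fell where the shared regions of the del-cIDR libraries were low as well, and a lower copy number of the stretch and lower accessibility cannot be told apart here.

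The window with the highest median KO minus WT difference of single regions on the 16 autosomes, 0.62, was 20 to 21 Mb on chromosome 2. It held 5 KO-only regions, all between 20.4 and 21 Mb, where they were 5.75% of the 87 regions called in both KO libraries. The tallest, from 20656294 to 20656488, held 44 and 39 tags. The 67 shared regions of this stretch, also chosen after seeing the values, had median log2 heights of 0.74 and 0.71 in KO, against 0.04 and 0 in WT and 0 for both libraries of del-cIDR. The KO minus WT difference of the library medians was 0.70, against 0.12 in the 1 Mb before and 0.003 in the 1 Mb after. Copy number and accessibility cannot be told apart for this stretch either.

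The other windows with many members had 7 each, on chromosome 4 from 141 to 142 Mb and on chromosome 16 from 30 to 31 Mb. In these, KO minus WT differences of the library medians were 0.16 and -0.04 log2. In the set from chromosomes 6, 8 and 11, 4 windows held 9 KO-only regions each, namely 28 to 29 and 108 to 109 Mb on chromosome 6, 125 to 126 Mb on chromosome 8 and 49 to 50 Mb on chromosome 11. Their members were 7.96% to 10.8% of the regions called in both KO libraries, and the shared regions were 0.41 to 0.58 log2 taller in KO than in WT. Most KO-only regions of the 16 autosomes had no other KO-only region near. The nearest other one was 279440 bp away at the median, and 69 of 1900 (3.63%) had one within 10 kb. For members of chromosomes 6, 8 and 11, which were denser, this distance was 91981.5 bp and 78 of 1134 (6.88%) had one within 10 kb. Regions of other call patterns lay closer. The nearest was 2289.5 bp away at the median on the 16 autosomes and 2432 bp on chromosomes 6, 8 and 11. Gaps within the WT-only and del-cIDR-only classes are not given here.

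The count of 3034 was 4500 when all lists were cut to an equal length and 2074 with peaks of −log10 q of at least 5. Without KO replicate 1 it was 12258, without KO replicate 2 13854, and without WT replicate 1 4754, since fewer calls or absences were then required. The order of the chromosomes was kept at equal length, with 7.85%, 7.58% and 4.48% on chromosomes 6, 8 and 11 against 3.10% on the others.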

How the data were processed

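ATAC-seq peak lists of 6 libraries, 2 per genotype, were used as the authors deposited them, 1 list per library each with its own calls. The tools named in the submitters' processing notes are MACS2, BWA, Picard, fastp, featureCounts and SAMtools, with GRCm39 as the build. Their versions and settings, and any shift to the transposase cut site, are not given in sources used here. The deposited fold is a ratio of summit pileup to local background, with 1 tag added to each. The deposited p and q are −log10 values, and the deposited score follows the −log10 q. These values belong to a peak in its own list. Peaks on the sequence named dm were dropped, and 44 KO-only regions outside chromosomes 1 to 19 were left out. Summit height and background were solved from fold and p with the Poisson form MACS2 uses, giving whole tags within 0.1 for 100% of the 1007167 mouse peaks. Merging used an overlap of at least 1 bp, in Python 3.11.15 with scipy 1.17.1 and pandas 2.3.3. Solving and merging were tested on simulated data. Shares near gene starts, G+C content and repeats were planned and could not be computed, since no genome of that build was used here. Members, stretches and lists were chosen with earlier results of these data known. Regions named are the 10 and 5 tallest by scaled height, the 5 widest, the 3 fullest windows with ties and 3 on each side of the limit. No count of regions was tested.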

Additional observations from a re-analysis of the deposited data

Results flagged for a closer look

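Shared regions 1 to 10 kb from KO-only regions of chromosomes 6, 8 and 11 lay on opposite sides of WT in the mutants. Both KO libraries stood above both WT libraries, with a mean difference of 0.31 log2. Both del-cIDR libraries stood below them, with a difference of -0.074 log2. However, replicate 2 was at -0.047 in del-cIDR and -0.041 in WT, which is nearly equal. All 18538 shared regions of these chromosomes gave 0.27 and -0.065, so the pattern is not particular to the neighbours. The difference between the mutants was not tested, and both are set against the same WT libraries.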

How the results depend on the processing

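The count of 3034 stayed between 2074 and 4500 under 2 stricter limits on q, an overlap of at least 100 bp, equal list length and without members within 1 kb of a shared region (the last chosen after seeing the data). With 1 library left out it was 3696 to 13854. On the 16 autosomes, 1900 became 2893 at equal list length, and 2364 to 9645 with 1 library left out. On chromosomes 6, 8 and 11, 1134 became 1317 to 4209 with 1 library left out. The neighbour difference of KO against WT on the 16 autosomes was 0.03 log2. It changed sign at equal list length (-0.012) and for neighbours within 5 kb (-0.052). With heights scaled by background it was -0.21, against -0.24 over all shared regions of the 16 autosomes. As a median of single regions (chosen after seeing the data) it was 0.12, against 0.09 over all shared regions there. With 1 library left out it was -0.047 to 0.041, and below 0 without either KO or either del-cIDR library. The del-cIDR difference of -0.05 became 0.0041 and 0.0054 with −log10 q of at least 3 and 5, and 0.0031 for neighbours within 50 kb. As a median of single regions it was 0.0083, against 0.022 over all shared regions of the 16 autosomes. With 1 library left out it was -0.028 to 0. The causes were not tested. A replicate block leaves the differences at 0.028 and -0.045 by design, since each genotype has 1 library of each replicate number. Replicate 1 minus 2 height differences of shared regions showed almost no correlation between genotypes, -0.0004 to 0.0071 for 2 pairs and -0.01 for the other. Whether libraries were handled in pairs cannot be read from these values. Shares near gene starts, G+C content and repeat-masked bases were not run, since no genome of the build used by the lists was at hand. Heights of 5 or 6 tags set the limit of what could be called.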
